A study of Rattus norvegicus with 10 samples.

Results

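The chaperones and stress genes of the endoplasmic reticulum were followed in the livers of 10 male rats of the outbred Sprague-Dawley strain. Of these, 5 had been exposed to the effluent of bulk drug industries, and 5 control rats were set against them. Dose, route, duration and age are not stated in the labels, which list no genetic change in either group. RNA from each liver was measured on 1 Affymetrix 3' expression array, and each value is a log2 expression level of a probe set, a group of short probes to 1 transcript.

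The set holds 10 of the 14217 genes named on the array, Hspa5, Hyou1, Dnajb9, Sdf2l1, Hsp90b1, Calr, Pdia4, Creld2, Xbp1 and Ddit3. Every probe set was taken whose platform annotation names 1 of these genes and no other, which gave 11 of 31042 probe sets, as Hyou1 has 2. The genes were chosen on measured values of these same animals: how the chaperones vary together, the low Hyou1 value of 1 exposed animal, and the difference between groups. Values of the members are therefore a description, and no p is given for their correlations. All 11 probe sets were in the upper part of the array, with means over the median one. So were all 7 hepatocyte markers, albumin among them, which bears on the label liver.

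Secreted and membrane proteins fold in the endoplasmic reticulum, and the hepatocyte, which makes most plasma proteins, carries a heavy load of them. When unfolded protein builds up there, 3 sensors in the membrane answer: IRE1 splices the mRNA of the factor XBP1, ATF6 is cut to release a factor, and PERK slows translation and raises ATF4 and its target CHOP, the product of Ddit3. XBP1 and ATF6 raise chaperones, which hold, fold and quality-check the new chains. Splicing of Xbp1 was not analysed here.

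ATF6 acts with the CCAAT-binding factor NF-Y at a bipartite promoter element, the ER stress response element (ERSE), so the promoters were read for it. The letters searched were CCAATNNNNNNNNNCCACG for ERSE and ATTGGNCCACG for the related element ERSE-II, on both strands, with no mismatch. The windows were RefSeq's promoters on GRCr8, 250 bases before to 50 after each annotated start, and all 10 genes matched. ERSE stood in the promoters of 5 of the 10 genes, namely Hspa5, Hsp90b1, Calr, Creld2 and Xbp1, and in 22 of all 33469 promoters (0.0657%). ERSE-II stood in 1 of the 10, Hyou1, and in 17 of all promoters (0.0508%). The stretches that hold the matches are shown, with ERSE for the first 5 genes below and ERSE-II for Hyou1. Each is written 5′ to 3′ on the gene's own strand, with both conserved ends of the element in capitals.

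Hspa5, chr3:38452953-38453011, plus strand: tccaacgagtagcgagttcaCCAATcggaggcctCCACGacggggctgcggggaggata
Hsp90b1, chr7:23012327-23012489, minus strand: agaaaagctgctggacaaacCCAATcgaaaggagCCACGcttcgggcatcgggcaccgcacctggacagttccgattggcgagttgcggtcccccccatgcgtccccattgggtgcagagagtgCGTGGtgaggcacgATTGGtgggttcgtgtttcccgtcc
Calr, chr19:40213117-40213173, plus strand: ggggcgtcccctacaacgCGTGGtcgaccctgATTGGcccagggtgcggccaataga
Creld2, chr7:121789219-121789277, plus strand: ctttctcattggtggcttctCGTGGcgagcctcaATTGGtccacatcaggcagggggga
Xbp1, chr14:84604538-84604596, plus strand: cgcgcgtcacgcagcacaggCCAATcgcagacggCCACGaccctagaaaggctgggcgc
Hyou1, chr8:53602674-53602824, plus strand: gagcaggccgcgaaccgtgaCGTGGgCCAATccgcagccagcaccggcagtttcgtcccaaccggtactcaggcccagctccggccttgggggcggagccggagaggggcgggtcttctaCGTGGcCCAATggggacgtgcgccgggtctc

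Hsp90b1 held 2 copies of ERSE, in opposite orientations, and Hyou1 held 2 copies of ERSE-II. Hyou1 has 2 annotated starts 190 bases apart, and both copies lie before the first. The first copy overlaps the only match to TGACGTGG, the core of the element bound by XBP1 and ATF6, among the 10 genes, against 199 of all promoters (0.595%). The ends alone are common, since CCAAT stood in 37.5% and CCACG in 31.6% of all promoters and in all 10 genes. Dnajb9, Sdf2l1, Pdia4 and Ddit3 had no exact match to ERSE or ERSE-II in these windows, which says only that these letters are not in them.

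**Figure D1:**
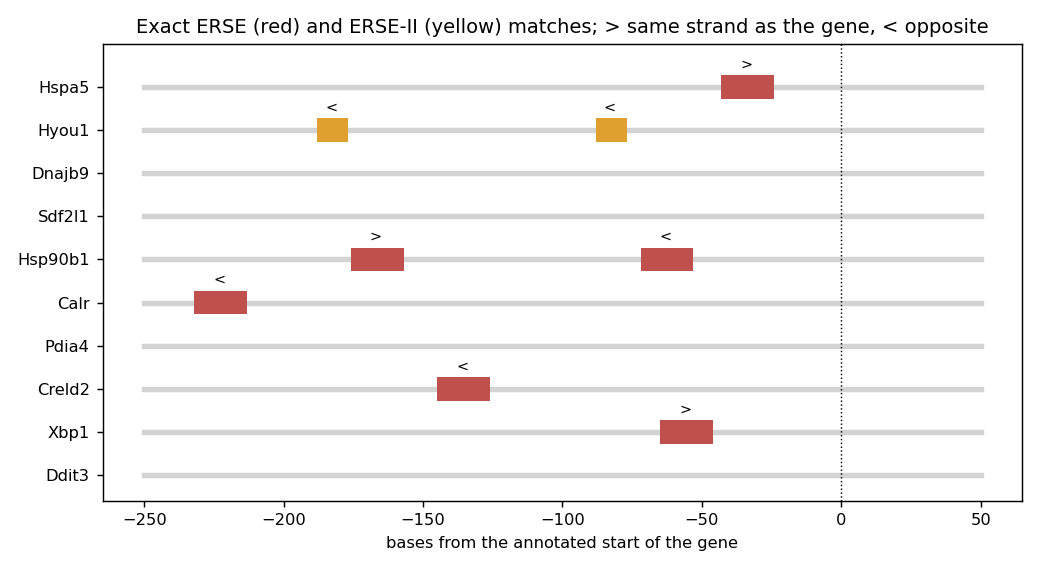
Exact matches to ERSE and ERSE-II in the promoters of the 10 genes, with the distance from the annotated start in bases on the horizontal axis (for Hyou1, from the first of its 2 starts). Hsp90b1 and Hyou1 each hold 2 matches, Hspa5, Calr, Creld2 and Xbp1 hold 1, and the other genes hold none.

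Exposed and control livers were then compared, to ask whether the effluent moved these genes. None of the 11 probe sets passed the limma test at an adjusted p of 0.05, and over all 31042 probe sets the share called was 0%. Unadjusted p-values under 0.05 were found for 1 of the 11, a Hyou1 probe set, and for 5.46% of all probe sets. In none of the 11 did the groups stand clear of each other, against 0.892% of all probe sets. As the genes were chosen with these differences known, nothing is read from the counts. The median difference, exposed minus control, was −0.07 on the log2 scale over the 11 probe sets and 0.00 over all. Of the 11, 10 were lower on average in exposed livers and 1, Sdf2l1, was higher. In bulk liver, fewer cells of a type and less RNA per cell cannot be told apart.

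**Figure D2:**
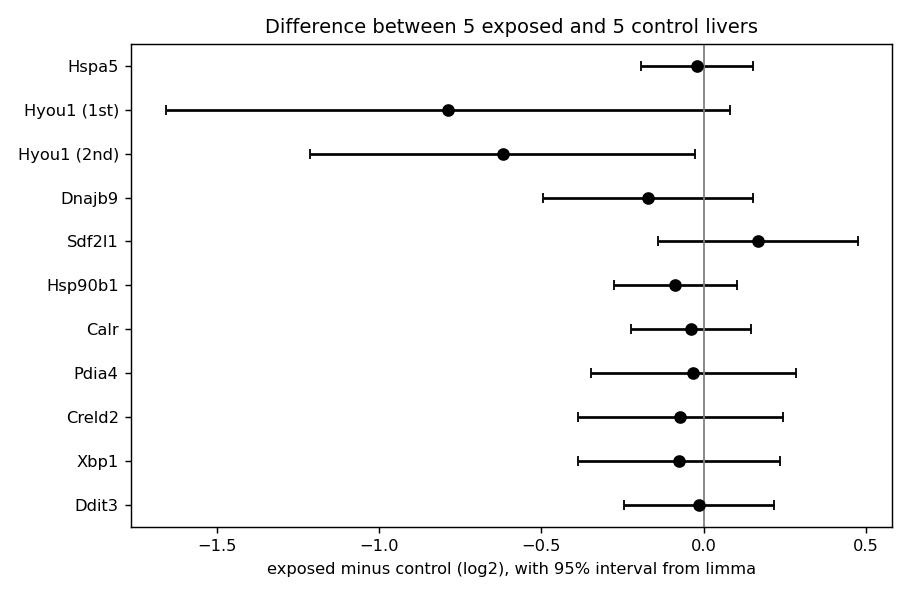
Difference of exposed minus control livers (log2) for each of the 11 probe sets, with the 95% interval from limma over 5 exposed and 5 control animals. Every interval crosses 0 except that of the second Hyou1 probe set, whose adjusted p was 0.879.

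Hspa5 encodes BiP, the Hsp70-type chaperone of the endoplasmic reticulum, which binds unfolded chains and holds the stress sensors inactive. It read 13.03, 12.92, 13.08, 12.73 and 13.07 in exposed animals 1 to 5, against 12.87, 13.14, 12.93, 12.99 and 13.00 in control animals 1 to 5. The ranges overlap, with the highest value in control animal 2 and the lowest in exposed animal 4. Exposed livers averaged 12.97 ± 0.15 and control livers 12.99 ± 0.10 (SD, n = 5 each). The difference was −0.02 ± 0.08 (SE, limma adjusted p = 0.982), with a 95% interval of −0.19 to 0.15. Hspa5 had the smallest SD within groups of the 11 probe sets, and 51.8% of all probe sets varied more. Its highest value was 1.33-fold its lowest, as was that of Calr.

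Hyou1 encodes a large Hsp70-related protein that exchanges nucleotide on BiP. Its probe set with the higher mean, called the first here, read 8.38, 5.90, 7.71, 8.11 and 7.89 in exposed animals, against 8.84, 8.17, 8.68, 7.56 and 8.68 in control animals. Exposed animal 2 stood far below all others, and without it the exposed values lay within the upper and lower ends of the control values. The second probe set read 6.99, 5.44, 6.12, 6.57 and 6.24 in exposed animals, against 7.51, 6.74, 6.95, 6.18 and 7.09 in control animals. Exposed animal 2 was again lowest and control animal 1 again highest, and the probe sets correlated at r = 0.91 within groups over the 10 animals (Spearman's rho 0.94).

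In the first Hyou1 probe set the difference was −0.79 ± 0.40 (SE), or 0.579-fold, with a 95% interval of −1.66 to 0.08 (limma adjusted p = 0.879). In the second it was −0.62 ± 0.27 (limma adjusted p = 0.879), with an interval of −1.21 to −0.03. Leaving out exposed animal 2 brought these to −0.36 and −0.41, with limma adjusted p-values of 0.892 and 0.885. Hyou1 also varied far more than the other members. Of all probe sets, 0.254% had a larger spread within groups than its first probe set, and 0.802% a larger one than its second. The highest animal read 7.70-fold the lowest in the first and 4.18-fold in the second. The low value of exposed animal 2, on which the gene was chosen, enters these figures, so nothing is read from them. Among control animals alone the SDs were 0.53 and 0.49, and the largest of another member was 0.36 (Sdf2l1).

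The low value of exposed animal 2 was set against the rest of that liver. Its first Hyou1 probe set lay at −2.12 from the mean of the other 4 exposed animals on the log2 scale, and its second at −1.04. Over all 31042 probe sets, 3 lay as far below in this animal: Hyou1, Cyp7a1 at −2.49 and Serpina7 at −2.14. Hyou1 was chosen on this value, so its place among them is a description only. Cyp7a1 sets the pace of bile acid synthesis and Serpina7 the thyroxine-binding globulin, and both were named after their values were seen. The other chaperones stood close to the other exposed animals in this liver, between −0.32 for Pdia4 and 0.09 for Creld2.

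Genes next to Hyou1 on the chromosome showed no gap of that size. In the order of RefSeq's GRCr8 table these are C2cd2l, Dpagt1, H2ax and Vps11 on one side and Slc37a4, Trappc4, Cenatac and Foxr1 on the other. In exposed animal 2 they lay between −0.20 (Cenatac) and 0.05 (C2cd2l) from the mean of the other exposed animals. In 7 of the 8 this animal lay below that mean, and in 4 (Dpagt1, Vps11, Cenatac and Foxr1) it was the lowest exposed animal. Their r with Hyou1 over the 10 animals, with group means removed, lay between −0.60 and 0.51.

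Markers of other cells also differed in exposed animal 2, each taken relative to its own mean over 10 animals. The 8 macrophage markers averaged 0.41, the highest of the 10 animals, and all 8 were above 0, from 0.22 (Aif1) to 0.72 (Cd5l). The 5 bile duct markers averaged 0.20, against −0.14 to −0.04 in the other exposed animals, and this came from Spp1 (0.67) and Krt19 (0.41), without which the other 3 averaged −0.02. The 6 plasma cell markers averaged 0.25, and 0.03 without Jchain, an antibody joining chain that stood at 1.34. The 7 hepatocyte markers averaged −0.12, and this came mostly from Tat and Apoa1. Tat read 9.04 in this animal, against 9.56 in the exposed and 9.70 in the control mean. Apoa1 read 13.86, against 14.03 and 14.02. Alb, Ttr, Serpina1, Cyp2c11 and Fgb lay closer to their group means. Over the 10 animals r with Hyou1 was −0.14 for the macrophage list, −0.61 for bile duct, −0.66 for plasma cells and 0.40 for hepatocytes. These r include exposed animal 2, whose low Hyou1 value chose the gene. They were not computed without that animal, so nothing is read from them. The part of these cells in the Hyou1 value was not tested.

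**Figure D3:**
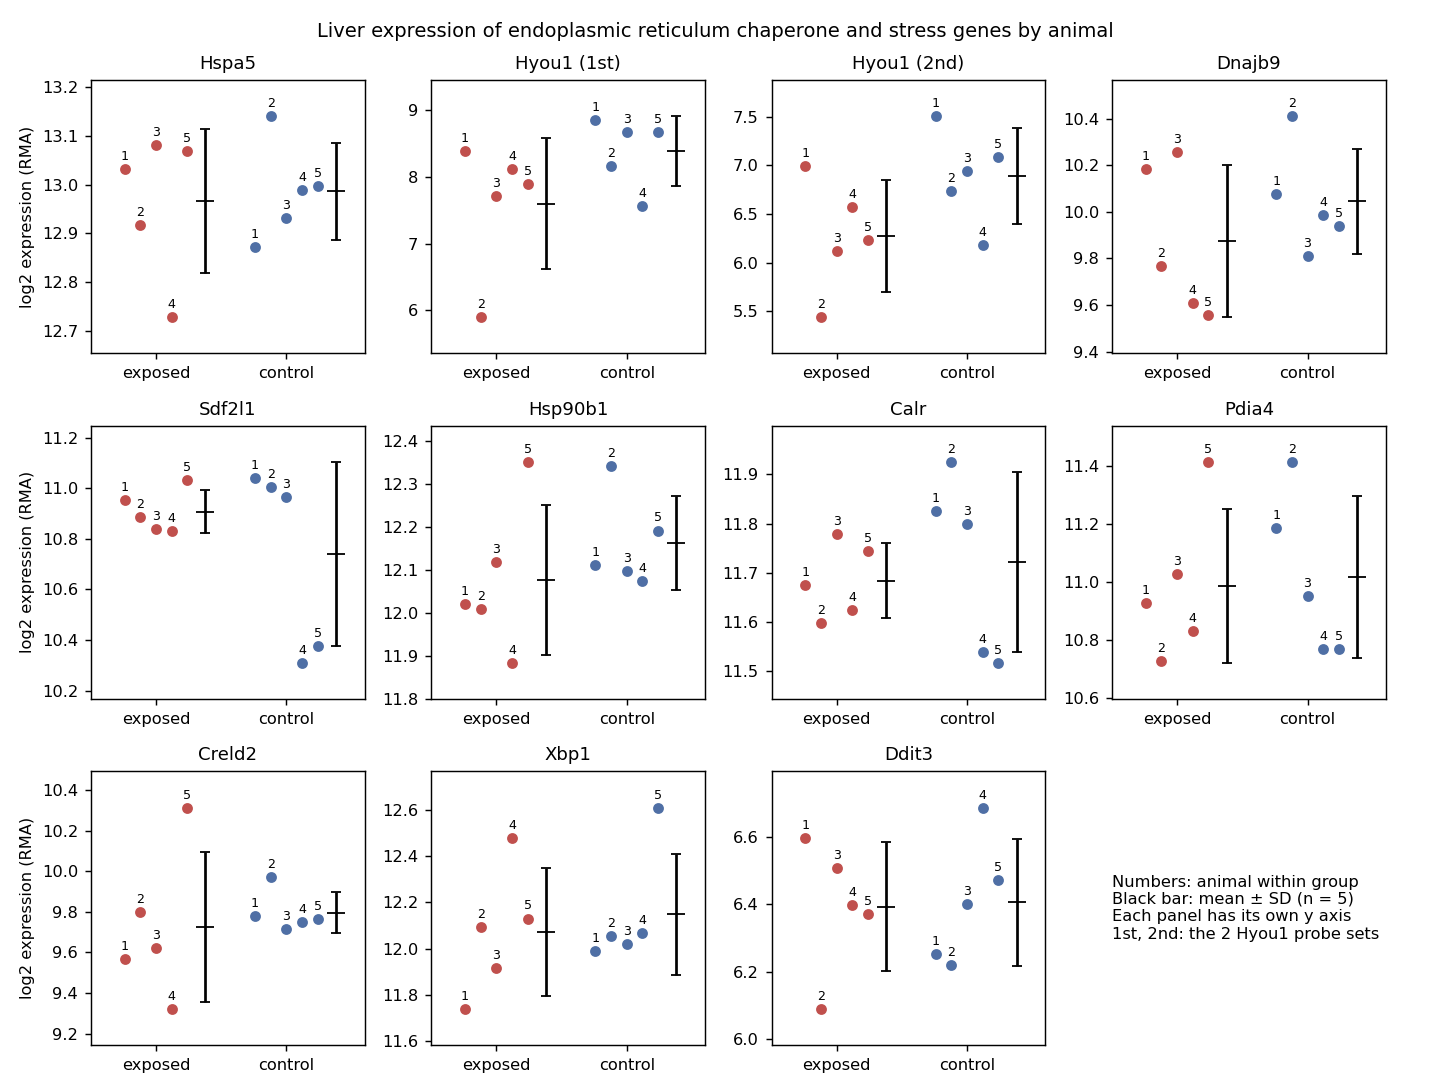
Log2 expression value of each of the 11 probe sets in every animal, exposed left of control, with bars at group means. Exposed animal 2 stands alone at 5.90 in the first Hyou1 panel and at 5.44 in the second, while groups overlap in every panel.

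Dnajb9 encodes ERdj4, a J-domain partner of BiP. It read 10.18, 9.77, 10.26, 9.61 and 9.56 in exposed animals, against 10.08, 10.41, 9.81, 9.99 and 9.94 in control animals. The ranges overlap, with the 3 lowest values in exposed livers. The difference was −0.17 ± 0.15 (SE, limma adjusted p = 0.914), with an interval of −0.49 to 0.15.

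Sdf2l1 encodes a protein that works in a complex with J-domain partners of BiP. It read 10.95, 10.89, 10.84, 10.83 and 11.03 in exposed animals, against 11.04, 11.01, 10.97, 10.31 and 10.38 in control animals. Control animals 4 and 5 stood below the other 8, which lay between 10.83 and 11.04. The difference was 0.17 ± 0.14 (SE, limma adjusted p = 0.912), with an interval of −0.14 to 0.48. Without control animal 4 it was 0.06, and without control animal 5 it was 0.08.

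Hsp90b1 encodes GRP94, the Hsp90-type chaperone of this compartment. It read 12.02, 12.01, 12.12, 11.88 and 12.35 in exposed animals, against 12.11, 12.34, 12.10, 12.07 and 12.19 in control animals. Exposed animals hold both its highest value, in animal 5, and its lowest, in animal 4. The difference was −0.09 ± 0.09 (SE, limma adjusted p = 0.928), with an interval of −0.28 to 0.10.

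Calr encodes calreticulin, the soluble chaperone that binds sugar chains on new glycoproteins and stores calcium. It read 11.68, 11.60, 11.78, 11.62 and 11.74 in exposed animals, against 11.82, 11.93, 11.80, 11.54 and 11.52 in control animals. The exposed values all lay inside the control range, whose lowest values are again control animals 4 and 5. The difference was −0.04 ± 0.09 (SE, limma adjusted p = 0.967), with an interval of −0.22 to 0.15.

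Pdia4 encodes ERp72, a disulphide isomerase. It read 10.92, 10.73, 11.03, 10.83 and 11.41 in exposed animals, against 11.19, 11.41, 10.95, 10.77 and 10.77 in control animals. Exposed animal 5 and control animal 2 shared the top and exposed animal 2 was lowest. The difference was −0.03 ± 0.15 (SE, limma adjusted p = 0.984), with an interval of −0.35 to 0.28.

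Creld2 encodes a secretory-pathway protein with isomerase activity that is induced by ER stress. It read 9.57, 9.80, 9.62, 9.32 and 10.31 in exposed animals, against 9.78, 9.97, 9.71, 9.75 and 9.77 in control animals. The spread was wider among exposed livers (SD 0.37) than among control livers (SD 0.10), and the difference in spread was not tested. The difference in level was −0.07 ± 0.15 (SE, limma adjusted p = 0.963), with an interval of −0.39 to 0.24.

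The regulators gave the same count of calls, none. Xbp1 read 11.74, 12.09, 11.91, 12.48 and 12.13 in exposed animals, against 11.99, 12.05, 12.02, 12.07 and 12.61 in control animals. Exposed animal 4 and control animal 5 stood above the other 8. The difference was −0.08 ± 0.14 (SE, limma adjusted p = 0.961), with an interval of −0.39 to 0.24.

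Ddit3, whose product CHOP promotes cell death under lasting stress, read 6.60, 6.09, 6.51, 6.40 and 6.37 in exposed animals, against 6.25, 6.22, 6.40, 6.69 and 6.47 in control animals. Exposed animal 2 was lowest and control animal 4 highest. The difference was −0.01 ± 0.11 (SE, limma adjusted p = 0.991), with an interval of −0.25 to 0.22. On a fold scale, the intervals of the genes other than Hyou1 reach down to 0.710-fold (Dnajb9) and up to 1.39-fold (Sdf2l1). Changes inside a gene's own interval are not excluded by these arrays.

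How the 8 chaperones vary together was described with each group's mean removed, so that a shift between groups adds nothing. The 28 pairs had a median Pearson r of 0.31, from −0.19 to 0.89, and 25 were positive. Pairs over 0.7 numbered 6. Over all 54 pairs of probe sets of different members the same 6 came to 11.1%, against 2.02% of the pairs a member probe set forms with probe sets of other genes. The points share arrays, and the members were picked for this behaviour.

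Hyou1 had a median r of 0.07 with the other 7 chaperones and 0 pairs over 0.7. Dnajb9 also had 0 pairs over 0.7, with r from −0.14 (Creld2) to 0.58 (Hspa5). Without Hyou1 the 21 pairs of the other chaperones had a median r of 0.46, of which 20 were positive. Leaving out exposed animal 2 moved the median over all 28 pairs little, to 0.32, and that of Hyou1 with the others to −0.12. With RNA quality regressed out the median over the 28 pairs was 0.195. The mean of the 7 other chaperones in exposed animal 2 was −0.09 relative to the 10-animal mean, against −0.22 in exposed animal 4, the lowest. Control animal 2 was above the gene's own mean in all 8 chaperones and exposed animal 5 in 6, while exposed animals 2 and 4 and control animal 4 were above it in 2.

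**Figure D4:**
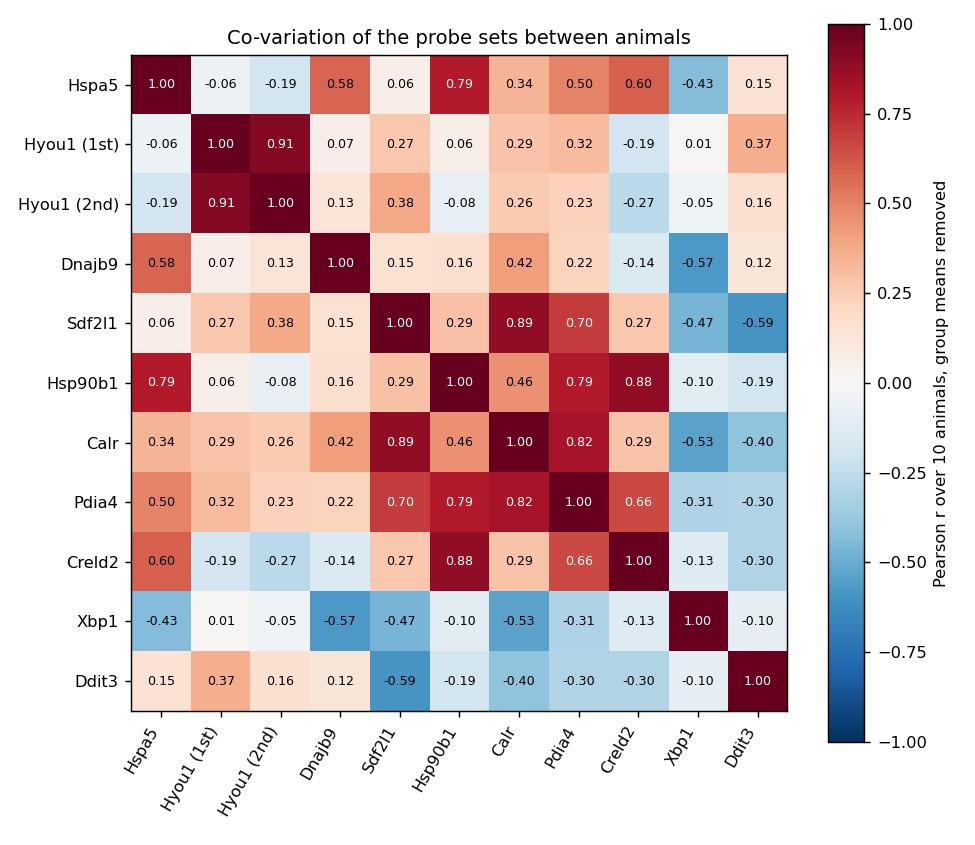
Pearson r between the 11 probe sets over 10 animals with group means removed, on a colour scale from −1 to 1. Values over 0.7 between different genes lie among Hspa5, Sdf2l1, Hsp90b1, Calr, Pdia4 and Creld2, and the 2 Hyou1 probe sets reach 0.91 with each other only.

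The pairs over 0.7 depended to different degrees on the animals left out. Sdf2l1 and Calr correlated at r = 0.89 (rho 0.83), and without control animals 4 and 5, a choice made after their values were seen, at 0.25. Sdf2l1 and Pdia4 correlated at 0.701 (rho 0.68), and at 0.67 without the same control animals. For the other pairs, the 2 animals farthest from the median of the first-named gene were left out, so these animals differ between pairs. Hsp90b1 and Creld2 correlated at 0.88 (rho 0.58), and at 0.59 without the 2 farthest in Hsp90b1. Calr and Pdia4 correlated at 0.82 (rho 0.82), and at 0.81 without the 2 farthest in Calr. Leaving out the animals farthest in Pdia4 was not tried. Hsp90b1 and Pdia4 correlated at 0.79 (rho 0.72), and this rested on the 2 farthest in Hsp90b1, without which r was 0.21. Hspa5 and Hsp90b1 correlated at 0.79 (rho 0.77), and at 0.51 without the 2 farthest in Hspa5.

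Both partners of some pairs stood high in each other's ranking. Creld2 was the 8th of 14216 other genes for Hsp90b1, and Hsp90b1 the 11th for Creld2. Sdf2l1 was the 17th for Calr and Calr the 53rd for Sdf2l1. Xbp1 ran against the chaperones, with a median r of −0.37 over 8 of them and 1 positive. Ddit3 had a median r of −0.24 and 3 positive. With Hyou1, Ddit3 had r = 0.37 over all animals, and the sign differed between groups: 0.91 over the 5 exposed and −0.62 over the 5 control animals, too few for either to carry weight. Exposed animal 2 was lowest in both genes, and without it r over the other 9 was −0.42.

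The genes most like Hspa5 over the 10 animals, of 14207 named genes outside the set, were Xrn2 (r = 0.95), C3h9orf78 (0.94), Rimoc1 (0.94), Pum3 (0.90) and Hnrnpf (0.90). Those most like Hyou1 were Rala (0.96), Slc26a4 (0.92), Kif14 (0.92), Eepd1 (0.90) and Smarcb1 (0.90). Rala moved little, between 7.59 in exposed animal 2 and 7.71 in control animal 3. Slc26a4 and Kif14 read low, with means below that of the median probe set. Without exposed animal 2, Rala kept 0.93 with Hyou1 and Smarcb1 0.70. None of these 10 is in the lists of ER genes used here. Each is the highest of 14207 values, and no test is attached to them.

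Sdf2l1, looked at after its values were seen, had a different company. Its 5 most alike genes were Pdia6 (0.99), Creb3l2 (0.97), Spcs2 (0.97), Pdia3 (0.96) and Dnajc3 (0.96). Of these, Creb3l2 read low, with a mean below that of the median probe set. Pdia6 and Pdia3 are disulphide isomerases, Spcs2 a signal peptidase subunit, Dnajc3 a J-domain partner of BiP and Creb3l2 a membrane-bound factor of the secretory pathway. Pdia6 read 12.31, 12.26, 12.29, 12.24 and 12.35 in exposed animals, against 12.36, 12.38, 12.35, 12.01 and 12.01 in control animals. Here too control animals 4 and 5 stood below the other 8. Without both of them r with Sdf2l1 was 0.83 for Pdia6, 0.81 for Pdia3, 0.58 for Creb3l2, 0.51 for Spcs2 and 0.19 for Dnajc3.

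**Figure D5:**
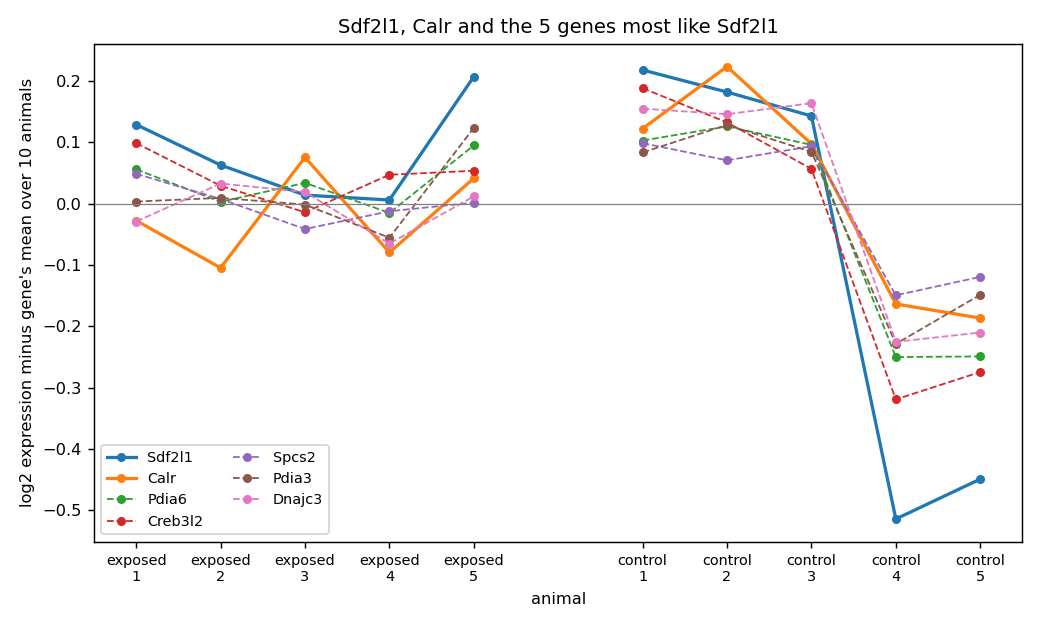
Sdf2l1, Calr and the genes most like Sdf2l1 in each animal, as log2 value minus the gene's mean over 10 animals, exposed left of control. Lines only join the values of a gene. Control animals 4 and 5 are low throughout, with Sdf2l1 at 10.31 and 10.38.

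Signs of RNA quality and of other cells moved with some of these genes. The 3' minus 5' difference of the Gapdh and beta-actin control sets, larger in more degraded RNA, ran from 0.494 to 0.604 in exposed animals and from 0.508 to 0.735 in control animals, with control animal 5 highest. It correlated at −0.73 with Sdf2l1, −0.70 with Calr, −0.76 with Pdia4 and 0.61 with Xbp1, and at −0.24 with Hyou1. With it as a covariate the Sdf2l1 difference was 0.02 and the r of Sdf2l1 with Calr was 0.77.

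The macrophage list, 8 of 10 markers measured, correlated at 0.72 with Sdf2l1. Its mean ran from −0.54 to 0.41 in exposed animals and from −0.89 to 0.34 in control animals. Control animals 5 and 4 were lowest among controls, at −0.89 and −0.30. Exposed animal 3, at −0.54, lay below control animal 4, yet its Sdf2l1 read 10.84 against 10.31. With other chaperones the list had r = 0.50 (Calr) and 0.40 (Pdia4), and between −0.18 and 0.22 for Hspa5, Hyou1, Dnajb9, Hsp90b1 and Creld2. All 8 macrophage markers and all 8 lymphocyte markers were higher on average in exposed livers, as were 6978 of all 14217 genes. Limma called 0 of them, and 1, a lymphocyte marker, lay below 0.05 before adjustment. Only 1 of the 8 lymphocyte markers had a mean over that of the median probe set, so most of them read low. Ddit3 correlated at 0.84 with the hepatocyte list. In that list Tat varied most, with an SD of 0.34 in exposed and 0.36 in control animals. Apoa1 came next at 0.10 and 0.09, so the list mean moves mostly with Tat.

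The mean of a list of circadian clock genes moved with some members as well. This mean of 9 clock genes ran from −0.14 to 0.20 in exposed animals and from −0.40 to 0.22 in control animals. It averages genes that moved in opposite directions, so it does not measure clock phase. Between control animals 1 and 5, Dbp went from 5.80 to 9.34 and Bmal1 from 8.08 to 6.83. The list mean correlated at −0.74 with Sdf2l1, −0.49 with Calr, 0.61 with Ddit3 and 0.03 with Hyou1. Time of day at sampling is not stated in the labels. The part of these cells and of the clock in the co-variation was not tested.

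Other genes of the pathway were read from fixed lists. Of 19 other folding genes of the endoplasmic reticulum, 9 were higher and 10 lower on average in exposed livers. Limma called 0 of them, and 0 had an unadjusted p under 0.05. Pdia5, a disulphide isomerase, had the smallest p, with a difference of 0.29 ± 0.14 (SE, limma adjusted p = 0.879). Dnajb11, a J-domain partner of BiP, followed at −0.16 and Hspa13 at −0.12.

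Most of these folding genes had a positive r with the chaperones. With the mean of the 7 chaperones without Hyou1, the 19 genes had a median r of 0.59, 18 were positive and 5 were over 0.7. Of all 14207 genes outside the set, 1.46% were over 0.7, and 51.7% were positive. All 8 macrophage markers were positive as well, with a median r of 0.31 and 0 over 0.7. The lists were chosen with these data known, so this is a description. By the mean of all 8 chaperones the highest were P4hb (0.77) and Pdia3 (0.73), both disulphide isomerases, and Dnajb11 (0.72). The mean of the folding list correlated at 0.82 with Calr, 0.81 with Sdf2l1 and 0.64 with Pdia4. With Hspa5, Dnajb9, Hsp90b1 and Creld2 it lay between 0.42 and 0.52, and with Hyou1 at 0.09. RNA quality was not removed from these values.

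Of 15 genes of ER-associated degradation, which removes misfolded chains, 12 were measured, with 3 higher and 9 lower on average. By limma 0 were called, and 0 lay below 0.05 before adjustment. The smallest p-values were those of Selenos (−0.15), Sel1l (−0.09) and Edem3 (−0.09). Their median r with the 7 chaperones was 0.22, with 0 over 0.7. By r with all 8, Edem3 (0.55), Derl2 (0.54) and Ube2j1 (0.40) led.

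Of 20 genes of protein entry and transport, 19 were measured, with 4 higher and 15 lower on average. By limma 0 were called, and 0 lay below 0.05 before adjustment. Ssr3, a subunit next to the translocon, differed by −0.10, and the translocon genes Sec61a1 and Sec63 by −0.08 each. Their median r with the 7 chaperones was 0.44, with 2 over 0.7. Ssr3, Sec61b and the retrieval receptor Kdelr2 had the highest r with all 8 chaperones, 0.72 each.

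Of 9 genes of the sensors and their partners, 8 were measured, and Ern1, which encodes IRE1, was not analysed here. Limma called 0, with 0 at an unadjusted p under 0.05, and 2 were higher and 6 lower. Mbtps2, a protease that cuts ATF6, differed by −0.12, Atf6 by −0.08 and Nfyb, an NF-Y subunit, by 0.17. The 8 genes had a median r of 0.29 with the 7 chaperones, with 5 positive and 2 over 0.7. By r with all 8 chaperones, Eif2ak3, which encodes PERK (0.73), Atf6b (0.61) and Mbtps2 (0.42) led. Creb3l3 (−0.54), Nfyb (−0.47) and Atf6 (−0.07) were negative.

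The 16 targets of the PERK and ATF4 branch did not run with the chaperones, with a median r of −0.15 with the 7 and 1 over 0.7. Limma called 0 of them, and 1 had an unadjusted p under 0.05. This was Atf3, a stress factor, with a difference of 0.30 ± 0.13 (SE, limma adjusted p = 0.879). It was 0.19 without exposed animal 4, and the unadjusted p was no longer under 0.05 without that animal, exposed animal 5 or control animal 3, 4 or 5. Atf5 differed by −0.17 and Vldlr by 0.11. By r with all 8 chaperones the serine synthesis genes Psat1 (0.65) and Phgdh (0.62) and the asparagine synthetase Asns (0.47) led.

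The ERSE search was extended to these lists. Of 15 other folding genes with a promoter entry, 3 held ERSE, namely Canx, Dnajc3 and Ero1b. Of the genes with an entry among those of degradation (10), entry and transport (16), sensors (7) and PERK targets (15), none held it. Sdf2l1 and Pdia4, which correlated with Calr at 0.89 and 0.82, had no exact match while Calr had 1. Hspa5, Hsp90b1 and Creld2, each with 1 or 2 matches, correlated with one another between 0.60 and 0.88. Calr correlated with Hspa5, Hsp90b1 and Creld2 at only 0.34, 0.46 and 0.29. Xbp1, the other gene with ERSE, had negative r with each of them and with Calr, from −0.53 to −0.10. A link between matches and co-variation was not tested. Matches are letters in a window and were not measured as binding in these livers.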

How the data were processed

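Liver RNA of 5 exposed and 5 control rats was hybridised to 1 array per animal. The authors deposited log2 values per probe set. RMA and R 2.8.1 are named for them in the submitters' processing notes. This method subtracts background and brings all arrays to a common distribution, which takes out any shift that most genes of 1 liver share. That values are log2 was read from their range, 2.19 to 15.0. Array medians lay between 5.43 and 5.49, arrays correlated at 0.991 to 0.996, and the number of arrays limits the precision.

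After 57 control sets were left out, 31042 probe sets were tested with limma 3.58.1 in R 4.3.3 (lmFit, eBayes, two-sided, Benjamini-Hochberg over all, threshold 0.05). The script was tested on simulated data. Platform annotation named 1 gene for 20826 probe sets, several for 436 and none for 9780. A gene in a list is its probe set with the highest mean, for 14217 genes. Correlations are Pearson's r and Spearman's rho with group means removed. List means per animal are relative to each gene's mean over 10 animals. Promoters came from RefSeq (GRCr8).

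The members and lists were chosen with earlier results of these data known. Named genes are the members, the 5 genes most like Hspa5 and Hyou1, and from each ER list the 3 with the smallest p and the 3 with the highest r with the mean of the 8 chaperones. Other names were chosen after their values were seen. Alternatives were leaving out each animal, RNA quality as a covariate, a replicate block, array weights, a trended and robust prior, quantile normalization, median centring and removal of low probe sets.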

Additional observations from a re-analysis of the deposited data

Results flagged for a closer look

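A value that stood apart from the other 4 of its group by Dixon's test was found in 10 of 78 groups of 5 animals, and chance alone flags about 1 in 20. The members and lists were chosen on values of these animals, and the low Hyou1 value is one that chose its gene, so nothing is read from the count. The first Hyou1 probe set read 5.90 in exposed animal 2, with the other exposed animals between 7.71 and 8.38. Creld2 read 9.97 in control animal 2, with the other controls between 9.71 and 9.78. Xbp1 read 12.61 in control animal 5, with the other controls between 11.99 and 12.07.

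Among the listed pathway genes, Asns read 7.44 in exposed animal 1, with the other exposed animals between 6.16 and 6.30. Atf6b read 6.86 in exposed animal 4 (others 7.14 to 7.18), Hspa13 8.72 in the same animal (others 9.04 to 9.13) and Nfyb 6.67 in exposed animal 3 (others 7.02 to 7.12). In controls, Atf6 read 9.08 in animal 5 (others 8.65 to 8.75), Sel1l 9.32 in the same animal (others 9.18 to 9.22) and Edem3 3.54 in animal 4 (others 3.75 to 3.81). Xbp1, Atf6 and Sel1l thus stood high in the same control animal, whose RNA quality difference of 0.735 was the largest of the 10, and its part in these values was not tested.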

How the results depend on the processing

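No member was called under any of the 17 alternatives, where the smallest adjusted p of a member was 0.765. Their median difference of −0.07 ranged from −0.12 to −0.02. The median r of the chaperone pairs, 0.31, was 0.46 with Hyou1 left out, which was added after seeing the data, 0.195 with RNA quality regressed out, and between 0.22 and 0.42 when 1 animal was left out. Of the 11 member probe sets, 5 kept 1 sign under every alternative and 6 did not. Leaving out 1 animal gave −0.99 to −0.36 for the first Hyou1 probe set and −0.80 to −0.41 for the second, both nearest 0 without exposed animal 2, 0.06 to 0.24 for Sdf2l1, −0.27 to −0.08 for Dnajb9, −0.16 to −0.04 for Hsp90b1 and 0.19 to 0.38 for Atf3. It turned the sign of Hspa5 (−0.0493 to 0.0391), Calr (−0.0888 to 0.0136), Pdia4 (−0.139 to 0.0669), Creld2 (−0.219 to 0.0292), Xbp1 (−0.178 to 0.0394) and Ddit3 (−0.065 to 0.0617). It did so for Asns (−0.268 to 0.104), Derl2 (−0.00102 to 0.0494), Eif2ak3 (−0.128 to 0.000246), Kdelr2 (−0.067 to 0.0215) and Pdia3 (−0.021 to 0.0682). With RNA quality as a covariate the sign turned for Xbp1 (0.0491), Ddit3 (0.018), Pdia3 (−0.031) and Sec61b (−0.0136), and with quantile normalization for Kdelr2 (0.0011). The cause of these turns was not tested. With RNA quality as a covariate the r of Calr with Pdia4 was 0.63 and of Sdf2l1 with Pdia4 0.34. Without exposed animal 1, limma called 1 probe set of all, which is no member. Same-numbered animals of the groups did not vary together (correlations −0.07 to 0.09), so the numbers are not taken to pair the animals, and a replicate block called 0 probe sets, with 1666 at an unadjusted p under 0.05. Atf3, Edem3 and Vldlr have no value under the filter on low values, which removed them. With 5 animals a group, differences inside a printed interval are not excluded. Of the members' intervals only that of the second Hyou1 probe set leaves out 0, and its limma adjusted p was 0.879.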
